A study of Rattus norvegicus with 2 samples.

Results

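Rab genes encode small GTPases that mark the membranes of the secretory and endocytic pathways. In myocardium of spontaneously hypertensive rats, a strain bred for raised blood pressure and in which the heart enlarges, 54 genes whose listed symbol is Rab, digits and an optional ending of small letters or digits were described, of 13706 protein-coding genes listed in all. Symbols holding ip, gap or gef, which belong to binding partners and regulators, were left out, 5 in number. The name rule also takes in Rab3il1, which encodes an exchange factor and not a GTPase, so 53 of the 54 are Rab GTPases. The KXH library came from rats given the herbal Jiangya Kangxian formula at its high dose, 9.6 g/kg into the stomach, for 12 weeks. The water library came from rats of the same strain that received distilled water by the same route for 12 weeks. There was 1 library per group, made from Trizol-extracted total RNA, and neither the age of the rats nor the number of animals behind a library is stated in the labels.

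A Rab protein cycles between a GTP-bound form that sits on a membrane and recruits effectors (tethers, motors and sorting factors) and a GDP-bound form that is drawn into the cytosol by a GDP dissociation inhibitor. Exchange factors load GTP, GTPase-activating proteins speed its hydrolysis, and a prenyl tail added by Rab geranylgeranyl transferase anchors the protein. In heart muscle this traffic carries ion channels, receptors and the glucose transporter GLUT4 to and from the cell surface, serves lysosomes and autophagy, and releases natriuretic peptide granules.

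Each level is given as RPKM, reads per kilobase of the listed gene length per 1000000 reads of the protein-coding table, which summed to 14.1 M reads for KXH and 15.1 M reads for water (M, 1000000). A gene counts as measured when its mean over the 2 libraries is at least 1 RPKM. Ratios are KXH over water, each with an exact 95% interval for counting error. With 1 library per group no test between the treatments exists, and "higher" and "lower" describe these libraries, not the treatments. As tissue was sequenced in bulk, fewer cells of a type and less RNA per cell cannot be told apart.

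The Rab genes of the KXH and water libraries stood at similar levels. The same 10 genes had the highest levels in each library, and together they made up 59.8% of the summed Rab RPKM in KXH and 59.5% in water myocardium. Of the 54 genes, 46 were measured, and the summed level of the family was 1577 RPKM in the KXH library and 1608 RPKM in the water library. The measured members had a median level of 17.2 RPKM in the KXH library and 17.1 RPKM in the water library, above the medians of 12.5 and 12.6 RPKM over the 10467 measured genes of the same libraries. The median log2 ratio of RPKM + 1 was -0.02 for the Rab genes and -0.02 for all measured genes. It was above 0 for 19 Rab genes (41.3%) and below 0 for 27. Among all measured genes it was above 0 for 45%, which is the background for the counts above and below 0 in each group of Rab genes. No Rab gene was at least 1.2-fold higher on this scale, where 5.58% of all measured genes were. Lower by at least 1.2-fold were 3 of the 46 (6.52%), Rab38, Rab40c and Rab8b, where 8.91% of all measured genes were. No Rab gene was 1.5-fold apart on this scale, where 0.497% of all measured genes were that much higher and 0.774% lower. Hence none was 2-fold apart on it, where 0.0382% were higher and 0.105% lower. Adding 1 RPKM draws low levels together. Without it the ratio of Rab38 was 0.537, on 18 and 36 reads in the KXH and water libraries.

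Within some sets of close relatives the members differed in opposite directions. Rab8a was higher and Rab8b lower in the KXH library, and Rab3a was higher and Rab3b lower. The counting interval of Rab8a begins just above 1 and that of Rab8b includes 1, whereas those of Rab3a and Rab3b do not. How often pairs of other genes differ in opposite directions was not computed. For these members, on which the comparison between relatives turns, the 250 bases before the RefSeq transcription start (assembly GRCr8) are shown 5′ to 3′ on the gene's strand, with capitals marking matches on either strand to any of 5 promoter motifs. The motifs searched were the GC box GGGCGG, the CCAAT box CCAAT, the TATA box TATAAA, the E-box CACGTG and the cyclic AMP response element TGACGTCA. The stretches lie at chr16:17709413-17709662 (Rab8a, minus strand), chr8:76417549-76417798 (Rab8b, minus strand), chr16:18722274-18722523 (Rab3a, minus strand) and chr5:128858841-128859090 (Rab3b, plus strand).
Rab8a: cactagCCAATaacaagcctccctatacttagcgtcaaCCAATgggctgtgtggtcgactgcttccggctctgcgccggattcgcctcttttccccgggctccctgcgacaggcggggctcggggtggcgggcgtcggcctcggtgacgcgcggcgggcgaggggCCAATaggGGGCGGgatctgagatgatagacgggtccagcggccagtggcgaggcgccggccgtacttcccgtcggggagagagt
Rab8b: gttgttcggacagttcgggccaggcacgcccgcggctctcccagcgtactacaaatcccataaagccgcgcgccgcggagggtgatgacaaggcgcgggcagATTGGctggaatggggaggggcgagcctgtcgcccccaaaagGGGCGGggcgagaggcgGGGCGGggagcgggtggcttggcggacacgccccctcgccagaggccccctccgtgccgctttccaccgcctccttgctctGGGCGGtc
Rab3a: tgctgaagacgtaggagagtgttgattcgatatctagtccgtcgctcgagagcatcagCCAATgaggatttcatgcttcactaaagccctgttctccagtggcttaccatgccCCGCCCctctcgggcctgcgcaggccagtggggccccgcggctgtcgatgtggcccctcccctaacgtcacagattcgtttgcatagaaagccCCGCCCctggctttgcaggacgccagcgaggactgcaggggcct
Rab3b: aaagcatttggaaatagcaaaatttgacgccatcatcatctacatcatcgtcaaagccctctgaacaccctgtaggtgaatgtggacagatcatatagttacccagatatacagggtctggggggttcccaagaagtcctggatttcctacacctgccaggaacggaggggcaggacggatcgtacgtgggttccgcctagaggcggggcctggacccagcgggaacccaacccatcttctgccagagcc
The Rab8a stretch held 1 GC box, 3 CCAAT boxes and 28 CpG pairs, and that of Rab8b held 3 GC boxes, 1 CCAAT box and 27 CpG pairs. The Rab3a stretch held 2 GC boxes, 1 CCAAT box and 16 CpG pairs. The Rab3b stretch held none of the 5 motifs, 9 CpG pairs and a GC content of 53.6%, the lowest of the 4.

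Start regions were found for 45 of the 54 members, giving 46 stretches because Rab30 has 2. A GC box was present in 35 of the 46 (76.1%), against 30.5% of all 33469 stretches of that length in the table. No Rab stretch held TATAAA, which 12.9% of all stretches did, whereas CCAAT occurred in 32.6% of Rab and 34.0% of all stretches. The E-box was found in 8.70% of Rab and 5.59% of all stretches, and the cyclic AMP response element in 2.17% and 1.59%. The median number of CpG pairs was 17 in Rab stretches and 5 in all. The 39 measured members with a start region had a median of 17 CpG pairs (range 3 to 35). The 6 members under 1 RPKM had a median of 10.5 (range 6 to 19), which lies within the range of the measured members. The comparison stretches came from 27457 symbols and were not limited to genes measured in these libraries. Whether the shares differ from those of other measured genes was not tested. These matches describe letters in a window and no binding was measured.

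Among the Rab genes of the endoplasmic reticulum and Golgi, 11 of the 14 listed were measured, 7 with a log2 ratio above 0 and 4 below, and none was 1.2-fold apart on the log2(RPKM + 1) scale. Their summed level was 470.4 RPKM in the KXH library and 468.1 RPKM in the water library, the largest of the 7 role groups in both libraries. Rab1b, which with Rab1a drives transport from the endoplasmic reticulum to the Golgi, had the highest level of the family, at 157 RPKM in the KXH library and 162 RPKM in the water library. Its ratio was 0.973 (0.932 to 1.02). Rab1a was at 101.7 RPKM in the KXH library and 95.9 RPKM in the water library, a ratio of 1.06 (0.997 to 1.13). Rab2a, which acts between the Golgi and the endoplasmic reticulum, was at 72.4 RPKM in the KXH library and 76.7 RPKM in the water library. Its counterpart Rab2b was at 13.7 RPKM in the KXH library and 12.1 RPKM in the water library, a ratio of 1.13 (0.932 to 1.37). Both intervals of Rab2 genes include 1, and the libraries were not separable at this depth. Rab18, found on the endoplasmic reticulum and lipid droplets, was at 61.0 and 58.7 RPKM in the KXH and water libraries, and the Golgi Rab6a at 33.5 and 32.2 RPKM. The highest ratio of the family among members with at least 100 reads belonged to Rab33b, a Golgi Rab that also acts in autophagosome formation, at 4.73 RPKM in the KXH library and 3.91 RPKM in the water library (1.21, 0.994 to 1.47; 223 and 198 reads). Rab30, Rab34, Rab43 and Rab6b had ratios between 0.955 and 1.05, each with an interval that includes 1.

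Early endosomal members had the median log2 ratio nearest 0 of the 7 role groups. Of 6 measured genes 3 had a log2 ratio above 0 and 3 below, with a median of 0.002. Rab5 proteins direct the fusion of early endosomes, and Rab5b, the most abundant of the 3, was at 78.3 RPKM in the KXH library and 77.2 RPKM in the water library (1.01, 0.969 to 1.06; 3595 and 3806 reads). Rab5c was at 39.9 RPKM in both libraries, a ratio of 1.00 (0.918 to 1.09). Rab5a was at 43.5 RPKM in the KXH library and 47.6 RPKM in the water library, a ratio of 0.915 (0.798 to 1.05). Rab21, which follows integrins through endosomes, was at 43.7 and 43.6 RPKM in the KXH and water libraries. Rab31 was at 17.4 and 17.7 RPKM. Rab22a, a relative of Rab5, was at 9.98 RPKM in the KXH library and 9.19 RPKM in the water library, a ratio of 1.09 (0.993 to 1.19).

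In the recycling and surface delivery group 10 of 12 listed members were measured, 3 with a log2 ratio above 0 and 7 below (45% of all measured genes were above), with a median of -0.07. Rab11a and Rab11b, which mark the recycling endosome, were both lower in the KXH library. Rab11b was at 100.3 RPKM in the KXH library and 106.6 RPKM in the water library, a ratio of 0.941 (0.887 to 0.998). Rab11a was at 42.5 RPKM in the KXH library and 47.3 RPKM in the water library, a ratio of 0.898 (0.835 to 0.966; 1351 and 1615 reads). The lower level of Rab11b was covered by counting error once all ratios were centred on their median, and that of Rab11a was not. Rab10, a Rab of GLUT4 vesicles in adipocytes, was at 93.7 RPKM in the KXH library and 95.3 RPKM in the water library (0.984, 0.940 to 1.03). Rab14, which acts between the Golgi and endosomes, was at 69.4 RPKM in the KXH library and 67.3 RPKM in the water library (1.03, 0.931 to 1.14). Rab35 and Rab4a, both of fast recycling, had ratios of 1.03 and 0.967. Rab4b was at 6.80 RPKM in the KXH library and 8.11 RPKM in the water library, a ratio of 0.839 (0.645 to 1.09). Rab8a, which serves delivery to the plasma membrane and cilia and moves GLUT4 in muscle cells, was at 18.9 RPKM in the KXH library and 16.5 RPKM in the water library (1.15, 1.00 to 1.31; 463 and 434 reads). Rab8b was at 10.9 RPKM in the KXH library and 14.0 RPKM in the water library (0.779, 0.605 to 1.00; 111 and 153 reads). The interval of Rab8a begins just above 1 and that of Rab8b ends just above 1. Rab13, a Rab of cell junctions, rested on 35 and 45 reads in the KXH and water libraries.

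**Figure D1:**
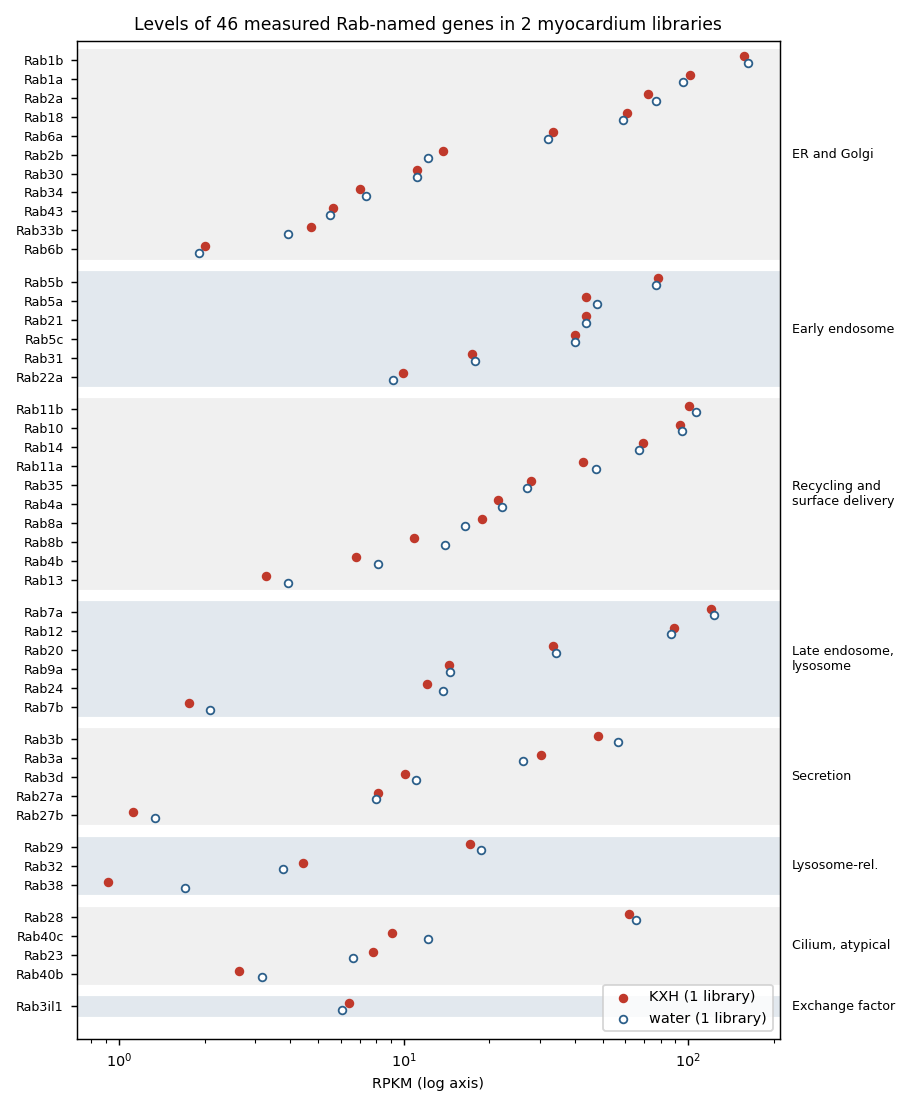
RPKM on a log axis of the 46 measured Rab-named genes, grouped by role and ordered by mean level within a role, with filled red points for the KXH library and open blue points for the water library (1 library each, so no error bars). The points of a gene mostly touch, from Rab1b at 157 and 162 RPKM downwards, and the widest gap is that of Rab38 at 0.918 and 1.71 RPKM.

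Late endosomal, lysosomal and autophagic Rab genes were dominated by Rab7a, which governs fusion of late endosomes and autophagosomes with lysosomes. It was the second most abundant member, at 119.9 RPKM in the KXH library and 122.9 RPKM in the water library (0.976, 0.932 to 1.02; 3519 and 3872 reads). Of the 6 measured members of this group 1 had a log2 ratio above 0 and 5 below, where 45% of all measured genes were above, and none was past 1.2-fold. Rab12, which sends the transferrin receptor to lysosomes, was at 88.7 RPKM in the KXH library and 87.1 RPKM in the water library. Reads covered only 66.4% of its listed length in KXH and 73.2% in water myocardium, the lowest deposited coverage of any Rab gene with at least 1000 reads. Rab20, a Rab of phagosomes, was at 33.5 RPKM in the KXH library and 34.2 RPKM in the water library. Rab9a, which returns mannose 6-phosphate receptors to the Golgi, was at 14.4 and 14.5 RPKM in the KXH and water libraries. Rab24, linked to autophagy, was at 12.1 RPKM in the KXH library and 13.8 RPKM in the water library, a ratio of 0.881 (0.743 to 1.04). Rab7b was at 1.76 RPKM in the KXH library and 2.09 RPKM in the water library, a ratio of 0.843 (0.595 to 1.19).

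Of the 5 measured genes of regulated secretion 2 had a log2 ratio above 0 and 3 below. Rab3 proteins sit on secretory vesicles and are best known from nerve terminals and gland cells. Rab3b, the most abundant of them in both libraries, was at 48.2 RPKM in the KXH library and 56.4 RPKM in the water library (0.855, 0.777 to 0.941; 774 and 972 reads). Rab3a was at 30.4 RPKM in the KXH library and 26.2 RPKM in the water library (1.16, 1.03 to 1.30; 589 and 546 reads). Rab3d was at 10.1 RPKM in the KXH library and 11.1 RPKM in the water library, a ratio of 0.914 (0.783 to 1.07). Neuronal and Schwann cell markers were also unequal, with a summed level of 4.99 RPKM in the KXH library and 8.68 RPKM in the water library over 7 listed genes of 9 named. Rbfox3 and Syt1 were listed in the water library only. The part of nerve tissue in the Rab3 levels was not tested. Rab27a, which docks granules at the plasma membrane, was at 8.13 RPKM in the KXH library and 7.99 RPKM in the water library (1.02, 0.867 to 1.19), and Rab27b rested on 14 and 18 reads.

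Of the 3 measured Rab genes of lysosome-related organelles 1 had a log2 ratio above 0 and 2 below. Rab38, known from melanosomes, was at 0.918 RPKM in the KXH library and 1.71 RPKM in the water library (0.537, 0.287 to 0.971), on only 18 and 36 reads. Its relative Rab32, which shares that role and also anchors protein kinase A at mitochondria, was at 4.44 RPKM in the KXH library and 3.78 RPKM in the water library (1.17, 0.908 to 1.52). Rab29, which recruits the kinase Lrrk2, was at 17.1 RPKM in the KXH library and 18.7 RPKM in the water library, a ratio of 0.910 (0.778 to 1.06).

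The ciliary and atypical members numbered 4 measured genes, 1 with a log2 ratio above 0 and 3 below. Rab28, a Rab of cilia and photoreceptors, was the most abundant of them at 61.6 RPKM in the KXH library and 65.5 RPKM in the water library (0.941, 0.872 to 1.01). Rab40b and Rab40c carry a SOCS box and act in ubiquitin ligases. Rab40c was at 9.08 RPKM in the KXH library and 12.2 RPKM in the water library, a ratio of 0.744 (0.576 to 0.956; 108 and 156 reads), the lowest among members with at least 100 reads. Rab40b was at 2.64 RPKM in the KXH library and 3.17 RPKM in the water library (0.833, 0.599 to 1.15). Rab23, an inhibitor of Hedgehog signalling, was at 7.79 RPKM in the KXH library and 6.65 RPKM in the water library, a ratio of 1.17 (0.980 to 1.40). The exchange factor Rab3il1, which acts on Rab8, was at 6.40 RPKM in the KXH library and 6.07 RPKM in the water library.

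The remaining 8 members lay under 1 RPKM, with 2 to 29 reads in sum over both libraries. Rab9b had 15 and 14 reads in the KXH and water libraries, Rab26 had 3 and 9, Rab33a had 4 and 7, and Rab15 had 5 and 3. The epithelial Rab17 had 2 reads in each library, Rab25, also epithelial, had 2 and 1, and Rab39a had 1 in each. Rab19 was the member listed in the water library only, with 5 reads, and 0 reads in the KXH library allow up to 0.157 RPKM (a floor of 3 reads). All 8 ratios had intervals that include 1.

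The 95% interval lay above 1 for 2 of the 46 measured Rab genes (4.35%), where it did so for 11.2% of all measured genes, and below 1 for 5 (10.9%), where it did so for 16.3%. The genes above 1 were Rab3a and Rab8a, and those below were Rab11a, Rab11b, Rab38, Rab3b and Rab40c. Centring all ratios on their median adds 0.02 on the log2 scale and puts 5 Rab genes above 1 and 4 below. Rab1a, Rab22a and Rab33b join those above, and Rab11b leaves those below. After centring, 13.8% of all measured genes lay above 1 and 13.5% below. With a 99% interval no Rab gene lay above 1, and Rab11a and Rab3b lay below it. Of all measured genes 6.63% then lay above and 9.95% below. Because the interval narrows with reads, the comparison was repeated on genes with at least 1000 reads in sum. There 1 of 21 Rab genes lay above 1 and 3 below, where 15.4% and 21.3% of 4619 genes did. At least 1.2-fold higher or lower were 0 of these 21, where 1.86% of the 4619 genes were higher and 3.12% lower. Over the same genes the log2 ratios of Rab members had a robust SD (scaled median absolute deviation) of 0.066, against 0.11 for all 4619, while the SD that counting error alone would give was 0.062 for the Rab genes and 0.060 for all. The ratios of these 21 members ran from 0.855 for Rab3b to 1.16 for Rab3a.

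**Figure D2:**
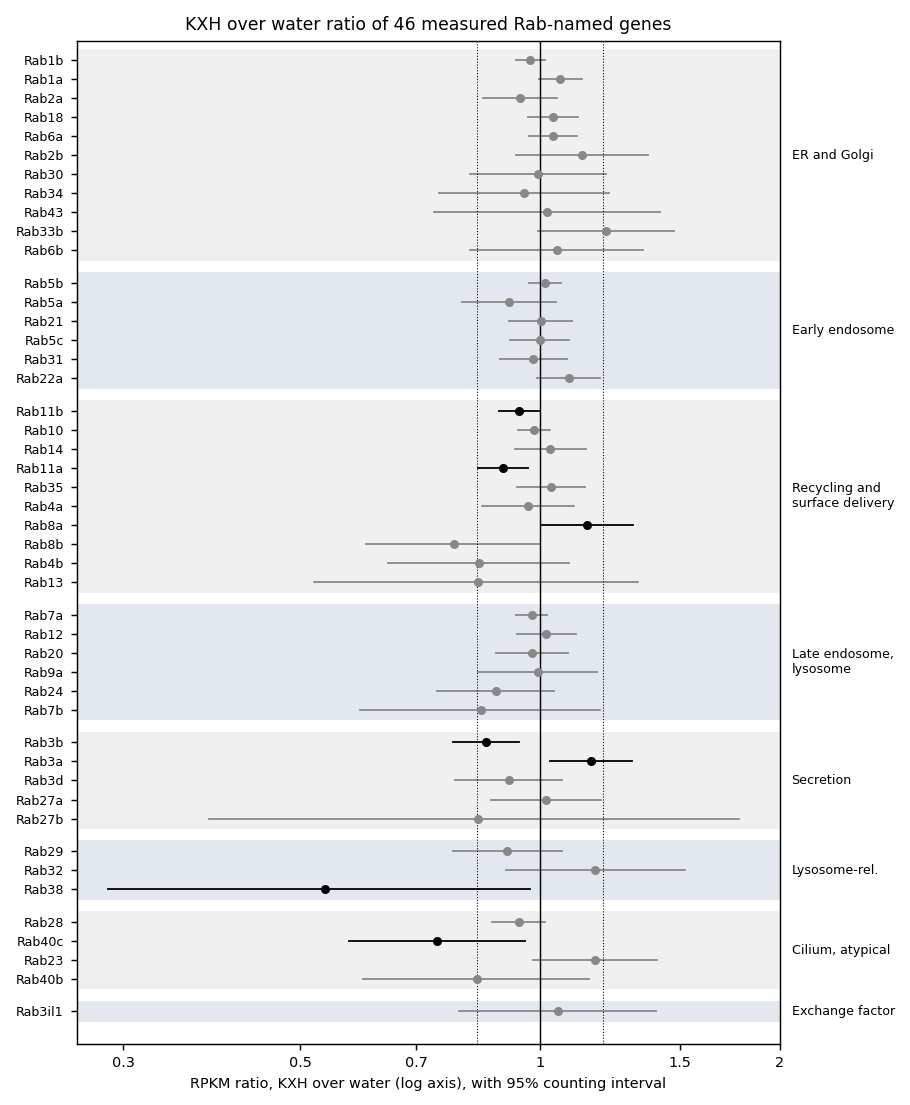
RPKM ratio of KXH over water on a log axis for the 46 measured Rab-named genes, grouped by role, with exact 95% intervals for counting error as lines and dotted lines at 1.2-fold either way. Black marks the 7 genes whose interval does not include 1, Rab3a and Rab8a to the right and Rab11a, Rab11b, Rab38, Rab3b and Rab40c to the left.

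Relatives that share a number were set against each other within a library, a comparison that is free of the scaling between libraries. Over the 17 pairs that can be formed, the counting interval of the change in balance lay off 1 for 4. No such share was computed for pairs of other genes. For single genes the interval lay above 1 for 11.2% and below 1 for 16.3% of all measured genes. That is an unlike measure and gives no background for the pairs. Rab8a held 63.5% of the summed Rab8 level in KXH and 54.1% in water myocardium. The level of Rab8a over that of Rab8b was thus 1.74 in KXH and 1.18 in water myocardium, a change of 1.47-fold (1.10 to 1.96). Of the 3 listed Rab3 genes, Rab3a held 34.3% of the summed level in KXH and 28.0% in water myocardium, and Rab3b held 54.3% and 60.2%. The level of Rab3a over that of Rab3b changed by 1.35-fold (1.16 to 1.58) and over that of Rab3d by 1.27-fold (1.04 to 1.54), and these 2 pairs share Rab3a. Rab1a held 39.2% of the Rab1 level in KXH and 37.2% in water myocardium, a change of 1.09-fold (1.01 to 1.18) against Rab1b. For the Rab5 genes all 3 intervals included 1, with Rab5b at 48.4% and 46.9% of the summed level in the KXH and water libraries. The Rab11 genes were both lower, so that Rab11a held 29.7% in KXH and 30.7% in water myocardium (0.955, 0.869 to 1.05). Reads of near-identical stretches can be lost or split between relatives when only unique reads are kept.

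**Figure D3:**
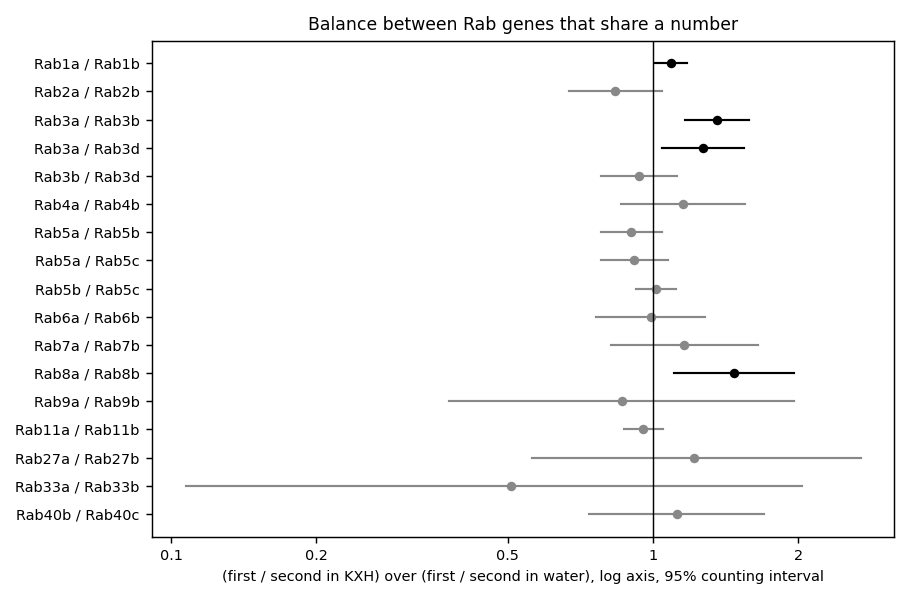
For each of the 17 pairs of Rab genes that share a number, the level of the first over the second in the KXH library divided by the same in the water library, on a log axis, with 95% counting intervals. The 4 black pairs, Rab1a with Rab1b, Rab3a with Rab3b, Rab3a with Rab3d and Rab8a with Rab8b, lie right of 1.

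Read coverage along the gene differed for some of the same members. In the authors' deposited coverage column, reads covered 91.6% of the listed length of Rab3b in KXH and 77.1% in water myocardium, although the water library had more Rab3b reads. For Rab1a the values were 99.6% in KXH and 87.6% in water myocardium, and for Rab8a 99.9% and 94.0%. A gap of at least 10 percentage points occurred in 2 of the 21 Rab genes with at least 1000 reads, Rab3b and Rab1a, and in 31 (0.671%) of the 4619 such genes. The part of uneven coverage in the Rab3 and Rab1 ratios was not tested. Listed lengths ran from 638 bases for Rab2a to 6964 for Rab22a, and 11 members, Rab8b and Rab40c among them, were listed at under 1000 bases. Levels of different Rab genes rest on these lengths, whereas ratios between libraries do not, since no member's length differed between the tables.

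The genes of the Rab cycle and other small GTPases were examined as 5 lists. Among 10 measured genes of prenylation and GDP dissociation 2 had a log2 ratio above 0 and 8 below (median -0.07), where 45% of all measured genes were above. At least 1.2-fold lower was 1 of the 10, against 8.91% of all measured genes, and none was higher, against 5.58%. Gdi2, a GDP dissociation inhibitor that extracts Rab proteins from membranes, was at 92.9 RPKM in the KXH library and 94.0 RPKM in the water library (0.988, 0.939 to 1.04). Chml, a Rab escort protein that presents new Rab proteins for prenylation, was at 1.98 RPKM in the KXH library and 3.34 RPKM in the water library (0.594, 0.415 to 0.842; 52 and 94 reads). Its relative Chm was at 8.35 RPKM in the KXH library and 9.18 RPKM in the water library (0.909, 0.795 to 1.04). Icmt, which methylates prenylated tails, was at 11.2 RPKM in the KXH library and 13.5 RPKM in the water library (0.830, 0.707 to 0.974). Rabggtb, the catalytic subunit of the geranylgeranyl transferase, was at 47.9 and 51.6 RPKM in the KXH and water libraries (0.929, 0.849 to 1.02).

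Of the 5 lists, GTPase-activating proteins had the lowest median, -0.11, with 7 of 27 measured genes above 0 and 20 below, where 45% of all measured genes were above. Intervals lay above 1 for 2 and below 1 for 9 of the 27, where 11.2% of all measured genes lay above and 16.3% below. On the log2(RPKM + 1) scale 2 were past 1.2-fold higher and none that much lower, against 5.58% and 8.91% of all measured genes. Tbc1d7, known as the third subunit of the tuberous sclerosis complex, was at 5.99 RPKM in the KXH library and 4.46 RPKM in the water library (1.34, 1.01 to 1.79). Tbc1d10c was at 8.73 RPKM in the KXH library and 6.77 RPKM in the water library (1.29, 1.05 to 1.58). Usp6nl, which acts on Rab5, was at 7.17 RPKM in the KXH library and 8.76 RPKM in the water library (0.818, 0.729 to 0.918), and Tbc1d2, which acts on Rab7, was at 1.38 and 1.67 RPKM (0.827, 0.606 to 1.12). Rab3gap2, a subunit of the Rab3 GTPase-activating complex, was at 15.9 RPKM in the KXH library and 16.9 RPKM in the water library (0.939, 0.860 to 1.03). With the trend of the ratio on gene length removed, the median of this list was -0.07.

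The 35 measured exchange factors had a median of -0.05, with 11 above 0 and 24 below, where 45% of all measured genes were above. At least 1.2-fold higher was 1 (2.86%) and lower were 2 (5.71%), against 5.58% and 8.91% of all measured genes. This list includes Rab3il1. Among the members with at least 100 reads, those farthest from 1 included 3 parts of the TRAPP tethering complexes, which activate Rab1 and Rab11. Trappc4 was at 18.1 RPKM in the KXH library and 13.7 RPKM in the water library (1.33, 1.08 to 1.63). Trappc2 was at 5.49 RPKM in the KXH library and 7.22 RPKM in the water library (0.761, 0.592 to 0.976), and Trappc9 at 14.6 and 17.9 RPKM (0.815, 0.733 to 0.905). The intervals of these TRAPP members lay on both sides of 1.

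Effectors, with 60 measured genes, had a median of -0.02, with 26 above 0 and 34 below, where 45% of all measured genes were above. Past 1.2-fold were 3 in each direction, against 5.58% of all measured genes higher and 8.91% lower. Rabep2, a Rab5 effector of endosome fusion, was at 3.35 RPKM in the KXH library and 5.39 RPKM in the water library (0.622, 0.483 to 0.797; 103 and 178 reads). Rabepk, a Rab9 effector, was at 1.81 RPKM in the KXH library and 2.86 RPKM in the water library (0.632, 0.416 to 0.947). Myo5b, a motor that moves Rab11 vesicles, was at 6.31 RPKM in the KXH library and 4.84 RPKM in the water library (1.30, 1.15 to 1.48). Sytl4, a Rab27 effector of granule docking, was at 2.18 and 1.48 RPKM in the KXH and water libraries (1.48, 0.992 to 2.22). Other small GTPases (mostly Rab-like, Arf, Arl and Sar genes, and Ran) had a median of 0.001 over 27 measured genes. Of these, 14 were above 0 and 13 below, where 45% of all measured genes were above. Past 1.2-fold was 1 in each direction, against the same 5.58% higher and 8.91% lower. Among those with at least 100 reads in sum, the farthest from 1 were Ift27 (0.781, 0.544 to 1.12), Arf3 (1.27, 1.01 to 1.60), Arf6 (1.2, 1.05 to 1.37) and Arl2 (0.863, 0.704 to 1.06).

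**Figure D4:**
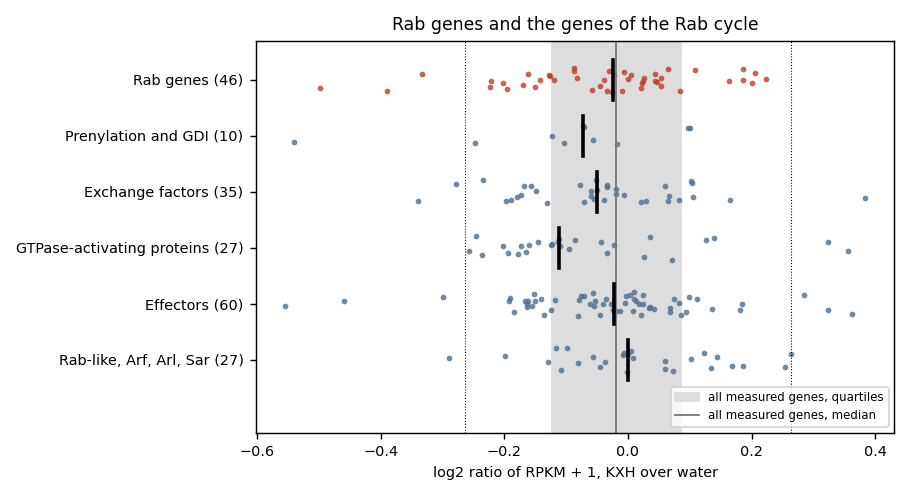
Log2 ratio of RPKM + 1, KXH over water, for each measured Rab gene (red) and each measured gene of 5 lists (blue). The lists hold genes of the Rab cycle and other small GTPases. Black bars mark list medians, a grey band the quartiles of all measured genes and dotted lines 1.2-fold. The Rab median of -0.02 lies on that of all genes, and the GTPase-activating proteins lie lowest at -0.11.

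Markers of the cells in the tissue were read beside these values. Among all measured genes 45% had a log2 ratio above 0. All 9 cardiomyocyte markers were measured, 6 of them higher and 3 lower, with Myh7 at 4136 RPKM in the KXH library and 3576 RPKM in the water library. Myh6 was at 4794 RPKM in the KXH library and 4824 RPKM in the water library, and the sums over all 9 were 41353 and 38363 RPKM in the KXH and water libraries. Endothelial markers were lower in the KXH library in 10 of 10 genes, with summed levels of 597 and 666 RPKM in the KXH and water libraries. The counting interval lay below 1 for 8 of these 10, where it did so for 16.3% of all measured genes. Smooth muscle and pericyte markers were lower in 9 of 9 measured genes, with sums of 453 and 515 RPKM. Fibroblast markers summed to 961 RPKM in the KXH library and 864 RPKM in the water library, with 8 of 10 higher, and macrophage markers to 338 and 349 RPKM. Erythroid markers summed to 2275 RPKM in the KXH library and 3344 RPKM in the water library, and were lower in 5 of 5 measured genes. Lymphocyte markers summed to 4.34 and 7.15 RPKM over 9 listed genes, with Cd3g at 0 in the water library. Only 3 of these were measured, all lower, among them Nkg7 at 1.16 and 3.15 RPKM on 13 and 38 reads. Mast cell markers summed to 12.5 and 12.4 RPKM over 6 listed genes. Of the 4 measured, 3 were higher and 1, Kit, was lower at 6.33 and 7.63 RPKM. The part of these cell types in the Rab ratios was not tested.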

How the data were processed

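Per the labels' protocols, frozen myocardium was extracted with Trizol and libraries were made with an Illumina TruSeq RNA kit. The deposited protein-coding tables give, per the file headers, a count of unique reads per gene, the gene length, a coverage and RPKM. The deposited counts sum to the heading's total, and the authors' RPKM equals reads per kilobase per 1000000 reads of that total to a relative 1e-09. The authors' coverage passes 100 for some genes and was used only to describe members. The submitters' processing notes name Bowtie 0.12.2 and rn6 without a role. Annotation, counting program and use of strand are not stated in the labels or headers, so overlapping antisense reads cannot be told apart. Only genes with reads are listed, and an absent row was taken as 0 reads. The lncRNA tables were not used.

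The members, lists and tests were chosen with earlier results of these data known. Log2 ratios used RPKM + 1, and printed ratios are RPKM ratios with nothing added. Ratio intervals are exact (Clopper-Pearson) on the KXH share of a gene's reads, and those of pairs are exact conditional intervals of the odds ratio. PCR reads that carry no molecular identifier need not be independent molecules, and intervals and floors cover only counting error. Named members were the 10 most abundant, the 8 highest and 8 lowest ratios among those with at least 100 reads, and those under 1 RPKM. Values of the other members are given so that every member is accounted for. Each list of Rab-cycle genes or other small GTPases gave up to 4 measured members with at least 100 reads farthest from 1, and Chm, Gdi2 and Rab3gap2. Of the genes this rule names, 2 are not reported here. Rab3gap1, Tbc1d1 and Tbc1d4 were not analysed here. The steps were tested on simulated data. TMM factors came from edgeR 4.0.16 (R 4.3.3), and the rest from scipy 1.17.1, pandas 2.3.3, numpy 2.4.6 and matplotlib 3.10.9 under Python 3.11.15. Promoters are RefSeq sequences of GRCr8, matched by symbol, and no coordinate of the files' own build was used.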

Additional observations from a re-analysis of the deposited data

How the results depend on the processing

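With 1 library per group, no library could be left out and animal-to-animal variation cannot be seen. No paired analysis was possible because each group had 1 library. The median log2 ratio of the Rab genes lay between -0.03 and 0.00 under every alternative tried (pseudocount, filters, scaling, length trend, without Rab3il1, and genes with at least 1000 reads, the last chosen after seeing the data). All 212 recomputed ratios of single Rab genes stayed within their counting intervals. This was largely set in advance, because both scalings add only 0.02 on the log2 scale and adding 1 RPKM draws ratios toward 1. Members with few reads also have wide intervals. Centring turned the side of 1 for 3 measured members.

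The number at least 1.2-fold higher, 0, was 1 (Rab33b) with a pseudocount of 0.1 RPKM, where 7.31% of all measured genes were. Removing the length trend also gave 1, where 6.34% of all measured genes were, against 5.58% in the main setting. The number at least 1.2-fold lower, 3, was 5 with no filter on low values, with Rab19 and Rab26 joining. There 9.38% of all 13706 genes were that much lower, against 8.91% of measured genes in the main setting. The number lower was 0 among genes with at least 1000 reads, where 3.12% of all such genes were. It was 0 at a threshold of 1.5-fold and 0 at 2-fold, where 0.774% and 0.105% of all measured genes were. The number with an interval above 1, 2, was 5 with TMM scaling and 5 with centring on the median of all genes. The share of all measured genes was 13.8% under each, against 11.2% in the main setting. The Rab number was 0 with a 99% interval (6.63% of all measured genes) and 1 among genes with at least 1000 reads (15.4%). The number below 1, 5, was 2 with a 99% interval (9.95% of measured genes) and 3 among genes with at least 1000 reads (21.3%). In the main setting 16.3% of all measured genes lay below 1. The cause was not tested, except that the threshold, the wider interval and the read minimum act by construction. Of 90 recomputed medians of the Rab genes and lists, 2 left the counting interval of their middle member, the cardiomyocyte markers with centring (0.12, main value 0.10) and the erythroid markers with the length trend removed (-0.59, main value -0.56). Members with few reads, such as Rab38, limit what can be read from their ratios.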
